A study of Mus musculus with 31 samples.

Results

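A set of 8 genes that encode secreted neurotrophic and growth factors were followed through the data on ependymal cells of the mouse spinal cord, the ciliated cells that line the central canal. The 8 genes were taken by name: Cntf, Bdnf, Gdnf, Artn, Hgf, Nrg1, Vegfa and Angpt2. All 8 were among the 16299 genes of the bulk RNA table and the 27998 genes of the single-cell RNA matrix, and 53 of the 96670 single-cell ATAC peaks lay within 2 kb of one of them. Neurotrophic factors bind receptors on neurons and glia and keep them alive or steer their growth. Cntf signals through a cytokine receptor shared with the leukaemia inhibitory factor family, Bdnf through the tyrosine kinase TrkB, and Gdnf and Artn through Ret together with a GFR-alpha co-receptor. Hgf, Nrg1, Vegfa and Angpt2 act through tyrosine kinase receptors on many cell types, Vegfa and Angpt2 mainly on blood vessels.

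The cells came from mice on a C57BL/6 background. Foxj1-Olig2-tdT and Foxj1-tdT mice both carry, by name, the ependymal gene Foxj1 and tdT, read here as the red tdTomato reporter, and Foxj1-Olig2-tdT mice carry in addition Olig2, which directs cells towards the oligodendrocyte fate. The labels give neither the alleles nor the ages. Bulk RNA was measured in 12 libraries of sorted ependymal cells. Each genotype had 2 uninjured libraries, 2 at 1 dpi and 2 at 5 dpi, where dpi is taken to mean days past the injury. Single-cell RNA covered 6 samples in 1 matrix, and single-cell ATAC covered 1 sample of non-neuronal cells from uninjured cord.

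The bulk values are normalised counts, whose sums ran between 12601290 and 13878102 per library, and the number of reads behind them is unknown. Olig2 ran between 1690.3 and 3960.9 in the 6 Foxj1-Olig2-tdT libraries, against 2.2 to 195.2 in the 6 Foxj1-tdT libraries. Summed over 8 ependymal markers, Foxj1-Olig2-tdT libraries held 126951 and 118747 when uninjured, 59985.9 and 52564.9 (1 dpi) and 8504.8 and 6434.0 (5 dpi). Foxj1-tdT libraries held 94165.1 and 92809.3 when uninjured, 31395.2 and 20756.9 (1 dpi) and 21508.7 and 24046.5 (5 dpi), and none of the 8 was at 0 in any library. The sum was thus lower after injury in both genotypes, and at 5 dpi it was lower in both Foxj1-Olig2-tdT than in both Foxj1-tdT libraries. One library stood apart: Foxj1-tdT at 1 dpi, replicate 1, held fibroblast markers at 13847.9, neuron markers at 5646.9 and oligodendrocyte markers at 22182.4, against 214.7, 66.5 and 2184.7 in replicate 2 of its group. Dcn alone made up 13599.8 of that fibroblast sum, and 2 of the 5 fibroblast markers measured were at 0 there. Oligodendrocyte markers were also high in the uninjured Foxj1-tdT libraries, at 14506.9 and 14701.0. The uninjured Foxj1-tdT libraries were nearly alike, with a Pearson correlation of 0.989 over genes, against 0.868 to 0.929 within the other 5 groups. Whether the 2 libraries of a group are separate mice is not given in the labels. A p-value here therefore sets a difference against library-to-library spread, which may be technical. In such bulk samples, fewer cells of a type and less RNA per cell cannot be told apart.

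Differences were tested with limma over 15811 genes on the log2(value + 1) scale, and genes with an adjusted p (Benjamini-Hochberg) under 0.05 were called. All 8 genes passed the filter on low values. Between genotypes, 2 of the 8 were called without injury, where 7.79% of all genes were called. At 1 dpi 1 of 8 was called, against 1.84% of all genes, and at 5 dpi 1 of 8, against 9.23%. After injury in Foxj1-Olig2-tdT cells, 0 of 8 were called by limma at 1 dpi (1 at an unadjusted p under 0.05), against 8.09% of all genes, and 1 of 8 at 5 dpi, against 31.2%. In Foxj1-tdT cells 3 of 8 were called at 1 dpi, against 27.4%, and 4 of 8 at 5 dpi, against 23.0%. The injury response differed between genotypes for 2 of 8 genes at 1 dpi, against 2.77% of all genes, and for 0 of 8 by limma at 5 dpi (3 at an unadjusted p under 0.05), against 7.28%. These shares rest on 8 genes, so a single gene moves each by a large step, and comparisons that share the uninjured libraries are not independent of each other. In Foxj1-tdT cells at 5 dpi the median fitted difference of the 8 genes was 3.31 on the log2 scale, against 0.04 over all genes. In Foxj1-Olig2-tdT cells at 5 dpi the same medians were 1.46 and 0.12. Groups listed at 0 enter these medians as 0 on the log2(value + 1) scale. The median of 3.31 lies between Cntf at 3.28 and Hgf at 3.35, and the Hgf value rests on 1 library at 102.5. Gdnf and Hgf passed the filter on low values only through injured libraries, so the filter itself favours a rise in them. The medians are therefore no test of a shift of the 8 genes.

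**Figure D1:**
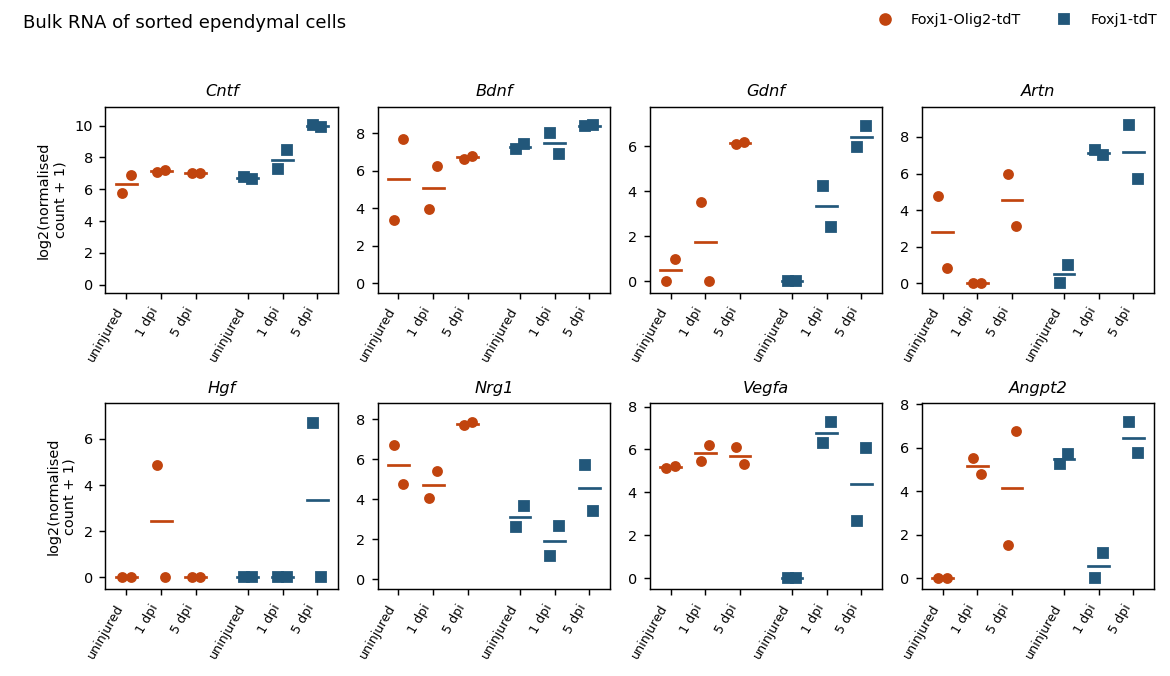
Bulk RNA of the 8 genes as log2(normalised count + 1), with Foxj1-Olig2-tdT libraries as circles on the left of each panel and Foxj1-tdT libraries as squares on the right, in the order uninjured, 1 dpi and 5 dpi. Each point is 1 library and each bar the mean of 2: Cntf is high only in the Foxj1-tdT libraries at 5 dpi (1063.5 and 975.1 normalised counts), and Gdnf is high at 5 dpi in both genotypes.

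Of the 8 genes, 6 matched the promoter table, all but Nrg1 and Angpt2. Each of the 6 has a promoter window that overlaps a single-cell ATAC peak of uninjured cord, so these promoters are shown. Each window runs from 250 bases before to 50 bases after an annotated transcript start and was taken from RefSeq on GRCm38.p6, 1 window per gene and the first that lay whole inside a peak where one did. The windows are Cntf chr19:12765583-12765882 (minus strand), Bdnf chr2:109692777-109693076 (plus strand), Gdnf chr15:7809798-7810097 (plus strand), Artn chr4:117929714-117930013 (minus strand), Hgf chr5:16553651-16553950 (plus strand) and Vegfa chr17:46032328-46032627 (minus strand). The Artn window had 111 of its 300 bases in a peak, and the other 5 had all 300. Capitals mark matches, on either strand, to any of 4 motifs: ACGTG, the core of hypoxia response elements, TGANTCA, the AP-1 site, TGACGTCA, the cAMP response element, and CAGCTG, an E-box of the kind that basic helix-loop-helix factors bind.
Cntf: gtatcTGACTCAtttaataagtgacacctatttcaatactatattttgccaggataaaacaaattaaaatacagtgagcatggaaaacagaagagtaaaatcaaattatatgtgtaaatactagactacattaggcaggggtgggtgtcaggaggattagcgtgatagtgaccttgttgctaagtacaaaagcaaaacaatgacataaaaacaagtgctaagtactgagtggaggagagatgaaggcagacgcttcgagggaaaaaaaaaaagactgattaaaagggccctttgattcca
Bdnf: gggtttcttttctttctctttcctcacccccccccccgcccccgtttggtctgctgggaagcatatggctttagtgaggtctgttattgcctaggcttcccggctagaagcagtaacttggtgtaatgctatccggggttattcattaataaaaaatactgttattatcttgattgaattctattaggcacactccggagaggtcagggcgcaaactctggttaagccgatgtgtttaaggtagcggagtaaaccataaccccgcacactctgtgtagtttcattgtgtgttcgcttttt
Gdnf: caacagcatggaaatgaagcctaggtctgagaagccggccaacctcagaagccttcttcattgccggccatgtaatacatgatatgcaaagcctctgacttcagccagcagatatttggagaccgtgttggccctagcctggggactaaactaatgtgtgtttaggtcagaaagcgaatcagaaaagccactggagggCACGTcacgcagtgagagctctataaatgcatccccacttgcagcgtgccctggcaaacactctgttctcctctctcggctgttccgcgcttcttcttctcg
Artn: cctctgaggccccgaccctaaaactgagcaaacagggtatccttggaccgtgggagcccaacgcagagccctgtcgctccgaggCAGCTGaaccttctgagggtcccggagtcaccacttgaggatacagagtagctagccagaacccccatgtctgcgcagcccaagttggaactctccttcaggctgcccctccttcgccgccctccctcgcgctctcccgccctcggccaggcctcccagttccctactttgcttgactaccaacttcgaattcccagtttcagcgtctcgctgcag
Hgf: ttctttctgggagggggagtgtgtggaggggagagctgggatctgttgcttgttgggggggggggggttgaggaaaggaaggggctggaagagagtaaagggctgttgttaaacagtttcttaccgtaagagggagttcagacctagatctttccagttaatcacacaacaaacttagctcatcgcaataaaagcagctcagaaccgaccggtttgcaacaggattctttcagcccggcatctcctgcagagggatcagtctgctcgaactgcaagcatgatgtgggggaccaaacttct
Vegfa: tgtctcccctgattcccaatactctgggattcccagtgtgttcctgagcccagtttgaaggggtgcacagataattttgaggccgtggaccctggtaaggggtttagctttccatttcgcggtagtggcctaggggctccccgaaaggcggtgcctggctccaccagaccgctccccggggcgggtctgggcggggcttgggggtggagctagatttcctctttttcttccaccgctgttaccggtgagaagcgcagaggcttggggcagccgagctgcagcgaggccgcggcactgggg
The Cntf window held 1 AP-1 match, the Gdnf window 1 ACGTG match and the Artn window 1 CAGCTG match. The Artn match lay outside the part of that window that is in a peak. The printed Bdnf, Hgf and Vegfa windows held no match to the 4 motifs. Other windows of these genes did hold matches. Of the 7 Bdnf windows, another 2 overlap the same peak, 1 with 238 bases in it and an ACGTG match and 1 with all 300 and a CAGCTG match, and the second Vegfa window, in no peak, held ACGTG. The first Bdnf window held 2 ACGTG matches and the second 1 AP-1 match, both windows also in no peak. The other Hgf window, with 184 bases in the peak, and the second Gdnf window held no match. Of 32851 promoter windows of this length, 19.6% held ACGTG, 16.3% CAGCTG, 7.81% TGANTCA and 1.79% TGACGTCA. The Cntf window was the poorest in G and C of the 6, at 36.3%, against 62.0% in the Vegfa window.

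Cntf, the ciliary neurotrophic factor, gave the firmest difference between the genotypes. It lies at chr19:12763528-12765632. In Foxj1-Olig2-tdT libraries it was at 52.6 and 115.9 when uninjured, 131.4 and 146.3 (1 dpi) and 129.2 and 130.4 (5 dpi). In Foxj1-tdT libraries it was at 110.0 and 97.9 when uninjured, 152.8 and 348.2 (1 dpi) and 1063.5 and 975.1 (5 dpi). Both Foxj1-tdT libraries at 5 dpi thus stood far above the other 10, and the Foxj1-Olig2-tdT libraries stayed within a narrow band after injury. At 5 dpi the mean was 129.8 ± 0.849 in Foxj1-Olig2-tdT cells and 1019.3 ± 62.5 in Foxj1-tdT cells (SD, n = 2 each), a log2 difference of -2.96 ± 0.50 (SE, adjusted p = 0.0058). Within Foxj1-tdT cells Cntf rose 9.81-fold at 5 dpi over uninjured cells (log2 3.28 ± 0.50, adjusted p = 0.00167). In Foxj1-Olig2-tdT cells the same comparison gave 0.72 ± 0.50 (adjusted p = 0.309). Both calls held under all 19 alternatives, with adjusted p between 0.00341 and 0.0457 for the genotype difference and between 0.000783 and 0.0236 for the rise. The test of the difference between the 2 responses missed the threshold, at a log2 value of -2.56 ± 0.71 and adjusted p = 0.0594, and passed it under 4 alternatives: quantile normalization, without either Foxj1-tdT library at 1 dpi, and without replicate 1 of uninjured Foxj1-Olig2-tdT.

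Reads at this locus can be hard to assign. RefSeq places Gm44505 and the zinc finger gene Zfp91 within 2 kb of Cntf. Zfp91 was at 708.6 and 679.1 in Foxj1-Olig2-tdT libraries and at 1017.3 and 1248.4 in Foxj1-tdT libraries at 5 dpi (log2 -0.70 ± 0.38, adjusted p = 0.297), and its 5 dpi value in Foxj1-tdT cells differed from uninjured by 0.48 ± 0.38 (adjusted p = 0.404). Markers of several cell types also differed at 5 dpi. The summed ependymal markers were lower in Foxj1-Olig2-tdT libraries, as given above. Markers of pericytes and smooth muscle (4 of 7 measured) summed to 37356.0 and 26927.7 in Foxj1-Olig2-tdT libraries at 5 dpi, against 2794.7 and 1223.1 without injury, and to 28053.4 and 3671.4 in Foxj1-tdT libraries, against 1823.4 and 1828.2. Fibroblast markers (5 of 6 measured) summed to 9597.6 and 8597.3 in Foxj1-Olig2-tdT libraries at 5 dpi, against 1010.2 and 297.5 without injury, and to 6528.2 and 4427.2 in Foxj1-tdT libraries, against 410.0 and 353.1. Oligodendrocyte progenitor markers (6 of 7 measured) summed to 1741.6 and 930.1 in Foxj1-Olig2-tdT libraries at 5 dpi, against 112.8 and 1.0 without injury, and to 132.4 and 400.8 in Foxj1-tdT libraries, against 0 and 0. Dcn, 1 of the fibroblast markers, was at 1.2 and 0 in Foxj1-Olig2-tdT libraries at 5 dpi, against 1.0 and 0.5 without injury. In Foxj1-tdT libraries Dcn was at 107.5 and 34.6 at 5 dpi, against 1.5 and 0 without injury. A sum thus need not hold for each marker in it. Whether the pericyte and fibroblast sums mark cells of these types was not tested. All 4 sums move with time after injury. Their part in the 5 dpi values of Cntf and of the other 7 genes was not tested either. The genes whose values followed Cntf most closely over the 12 libraries were Pck1, Cnn3 and Lamp2, with Pearson r of 0.949, 0.934 and 0.909. Here and below, such genes were picked as the highest of 13359, so their r is no test of shared control.

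Bdnf, the ligand of TrkB, lies at chr2:109674700-109727043 and was found in every bulk library, with no call in any of the 9 comparisons. Foxj1-Olig2-tdT libraries held 9.3 and 206.6 when uninjured, 14.5 and 73.6 (1 dpi) and 97.5 and 110.4 (5 dpi). Foxj1-tdT libraries held 141.7 and 168.4 when uninjured, 258.4 and 118.3 (1 dpi) and 333.7 and 340.5 (5 dpi). At 1 and 5 dpi the genotypes did not overlap, with Foxj1-Olig2-tdT lower, and without injury the widely spread Foxj1-Olig2-tdT pair covered the Foxj1-tdT values. With 2 libraries a side, such separation is common where nothing differs, and its share over all genes was not counted. The log2 difference between genotypes was -1.75 ± 1.21 without injury, -2.37 ± 1.21 at 1 dpi and -1.69 ± 1.21 at 5 dpi, with adjusted p of 0.435, 0.374 and 0.447. Without replicate 2 of the uninjured Foxj1-Olig2-tdT group, the library at 206.6, the uninjured difference and the rise at 5 dpi in that genotype were both called, at adjusted p of 0.0265 and 0.0206. Tead1, Mum1l1 and Agpat3 followed Bdnf most closely, with r of 0.956, 0.923 and 0.923 over 12 libraries.

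Gdnf, the founding ligand of the GDNF family, lies at chr15:7810048-7837580 and appeared after injury in both genotypes. It was at 0 and 1.0 in uninjured Foxj1-Olig2-tdT libraries, 10.6 and 0 (1 dpi) and 67.1 and 71.8 (5 dpi). In Foxj1-tdT libraries it was listed at 0 and 0 when uninjured and held 18 and 4.4 (1 dpi) and 61.4 and 117.1 (5 dpi). All 4 libraries at 5 dpi stood above the other 8, and the genotypes overlapped at 5 dpi. The rise at 5 dpi was called in Foxj1-Olig2-tdT cells (log2 5.64 ± 1.22, adjusted p = 0.00621) and in Foxj1-tdT cells (adjusted p = 0.00491, no fold given because the uninjured libraries were listed at 0). Both calls held under all 19 alternatives. At 5 dpi the genotypes differed by a log2 value of -0.29 ± 1.22 (adjusted p = 0.928), an estimate too wide to show that they were alike. Hist1h2ap, Ehhadh and Wfdc2 followed Gdnf most closely (r of 0.969, 0.965 and 0.957, 12 libraries).

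Artn, the GDNF family ligand artemin, lies at chr4:117925908-117930795, within 2 kb of the sialyltransferase gene St3gal3. Foxj1-Olig2-tdT libraries held 26.8 and 0.8 when uninjured, 0 and 0 (1 dpi) and 61.7 and 7.9 (5 dpi). Foxj1-tdT libraries held 0 and 1.0 when uninjured, 154.3 and 127.9 (1 dpi) and 397.4 and 50.3 (5 dpi). The 4 injured Foxj1-tdT libraries were above both uninjured ones, whereas the injured Foxj1-Olig2-tdT libraries lay on both sides of their uninjured pair. In Foxj1-tdT cells Artn rose at 1 dpi (log2 6.64 ± 1.49, adjusted p = 0.00941) and at 5 dpi (6.66 ± 1.49, adjusted p = 0.0108). It was lower in Foxj1-Olig2-tdT than in Foxj1-tdT cells at 1 dpi (adjusted p = 0.0456), and the 1 dpi response differed between genotypes (adjusted p = 0.0472). These calls were fragile, and Artn passed the filter on low values only with the help of injured libraries. Both rises were lost when the near-alike uninjured Foxj1-tdT pair was averaged into 1 library (adjusted p = 0.0646 and 0.0751) or either of the pair was left out, and the rise at 5 dpi also without replicate 1 of that group, the library at 397.4. The genotype difference held under 7 of 19 alternatives and the difference in response under 6. At 1 dpi the Foxj1-tdT library with high Dcn and neuron markers held 154.3 and the other 127.9. Without either of them the rise at 1 dpi was still called and the genotype difference was not.

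Hgf, the hepatocyte growth factor that binds Met, lies at chr5:16553495-16619439 and was listed at 0 in 10 of 12 bulk libraries. The exceptions were 28.1 in replicate 1 of Foxj1-Olig2-tdT at 1 dpi and 102.5 in replicate 1 of Foxj1-tdT at 5 dpi. No comparison was called, and in both of those groups the partner library was at 0. Without that partner at 5 dpi, replicate 2 of Foxj1-tdT, the comparison with uninjured cells was called at adjusted p = 0.0331, on 1 library.

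Nrg1, a ligand of the ErbB3 and ErbB4 receptors, spans chr8:31807452-32891609, a locus that also holds several annotated non-coding genes. Foxj1-Olig2-tdT libraries held 102.3 and 25.7 when uninjured, 15.4 and 41.8 (1 dpi) and 205.7 and 231.0 (5 dpi). Foxj1-tdT libraries held 5.0 and 11.6 when uninjured, 1.2 and 5.2 (1 dpi) and 50.8 and 9.5 (5 dpi). At each of the 3 times both Foxj1-Olig2-tdT libraries were above both Foxj1-tdT libraries. As for Bdnf, the share of all genes separated in this way was not counted. The log2 differences were 2.59 ± 1.09, 2.84 ± 1.09 and 3.23 ± 1.09 without injury, at 1 dpi and at 5 dpi, with adjusted p of 0.188, 0.225 and 0.0995, so none was called. With a pseudocount of 8 in place of 1, the difference at 5 dpi was called (adjusted p = 0.0425). Mpdu1, Zw10 and Rab31 followed Nrg1 most closely (r of 0.889, 0.879 and 0.872).

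Vegfa, the main growth factor of blood vessel sprouting, lies at chr17:46016993-46032377. Foxj1-Olig2-tdT libraries held 34.7 and 36.3 when uninjured, 42.7 and 72.9 (1 dpi) and 67.4 and 39.4 (5 dpi). Foxj1-tdT libraries were listed at 0 and 0 when uninjured and held 77.7 and 152.6 (1 dpi) and 5.4 and 67.0 (5 dpi). Vegfa was thus above 0 in 10 of 12 libraries, and each call below set other libraries against the uninjured Foxj1-tdT pair. It rose in Foxj1-tdT cells at 1 dpi (adjusted p = 0.00147, called under all 19 alternatives) and at 5 dpi (adjusted p = 0.0159, called under 13). Without injury it was higher in Foxj1-Olig2-tdT than in Foxj1-tdT cells (adjusted p = 0.0185, called under 15 of 19). The last 2 calls were lost with that pair averaged into 1, at adjusted p of 0.0949 and 0.142, and without either of the pair. The call at 5 dpi was also lost without replicate 2 at 5 dpi, the library at 67.0. In Foxj1-Olig2-tdT cells Vegfa differed from uninjured cells by 0.64 ± 1.07 at 1 dpi and 0.53 ± 1.07 at 5 dpi on the log2 scale (adjusted p = 0.769 and 0.749). The test of whether the responses at 1 dpi differed gave adjusted p = 0.0633. Notch4, Zfp7 and Rrp12 followed Vegfa most closely (r of 0.966, 0.953 and 0.941).

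Angpt2, an antagonist of Angpt1 at the vascular receptor Tie2 in most settings, lies at chr8:18690263-18741562 inside the gene Mcph1. Foxj1-Olig2-tdT libraries were listed at 0 and 0 when uninjured and held 44.8 and 26.7 (1 dpi) and 1.9 and 107.7 (5 dpi). Foxj1-tdT libraries held 37.3 and 51.4 when uninjured, 0 and 1.2 (1 dpi) and 141.9 and 53.4 (5 dpi). The genotypes were therefore ordered one way without injury and the other way at 1 dpi, with no overlap at either time. How many of all genes show such an order was not counted. Angpt2 was lower in uninjured Foxj1-Olig2-tdT than in uninjured Foxj1-tdT cells (adjusted p = 0.0492), fell at 1 dpi in Foxj1-tdT cells (log2 -4.92 ± 1.46, adjusted p = 0.0318), and responded differently in the 2 genotypes at 1 dpi (adjusted p = 0.0372). These calls held under 3, 13 and 8 of 19 alternatives, and all 3 were lost with both uninjured Foxj1-tdT libraries averaged into 1 (adjusted p = 0.265, 0.145 and 0.162). The fall at 1 dpi and the difference in response were also lost without either Foxj1-tdT library at 1 dpi. Mcph1, whose reads could be confused with those of Angpt2, was at 3.7 and 2.7 in uninjured Foxj1-Olig2-tdT libraries and at 100.3 and 96.3 in uninjured Foxj1-tdT libraries. At 1 dpi, Mcph1 held 108.8 and 151.3 in Foxj1-Olig2-tdT libraries and at 78.0 and 263.4 in Foxj1-tdT libraries, where Angpt2 was near 0. Markers of endothelial cells, the usual source of Angpt2, summed to 87.6 and 97.7 in uninjured Foxj1-Olig2-tdT libraries and to 97.1 and 113.4 in uninjured Foxj1-tdT libraries over 4 of 7 genes, and their part in the result was not tested. Angpt2 was followed most closely by Trim17, Fhod3 and Plekhg1 (r of 0.898, 0.894 and 0.877), and Artn by Cchcr1, Tceal9 and Wipi1 (r of 0.925, 0.874 and 0.868).

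Other ligands of the same pathways were measured beside the 8. Of 23 related ligand symbols 18 were tested. In Foxj1-Olig2-tdT cells 3 were called at 1 dpi and 6 at 5 dpi, all higher than without injury, or 16.7% and 33.3% of the list, against 8.09% and 31.2% of all genes. In Foxj1-tdT cells 4 rose and 2 fell at 1 dpi, and 5 rose and 1 fell at 5 dpi, each 33.3% of the list, against 27.4% and 23.0% of all genes. At 5 dpi in Foxj1-Olig2-tdT cells the list's share was thus near that of all genes. Clcf1, a cytokine that signals through the Cntf receptor, rose in both genotypes at both times. Foxj1-Olig2-tdT libraries held 8.1 and 1.1 when uninjured, 408.6 and 190.7 (1 dpi) and 159.7 and 180.8 (5 dpi). In Foxj1-tdT libraries Clcf1 was listed at 0 and 0 when uninjured, 446.1 and 887.0 (1 dpi) and 216.1 and 74.8 (5 dpi). The adjusted p of limma was 0.00285 and 0.00141 in Foxj1-Olig2-tdT cells at 1 and 5 dpi, and 9.64e-05 and 0.000604 in Foxj1-tdT cells. Ptn, the heparin-binding factor pleiotrophin, reached 3268.6 and 2453.1 in the 5 dpi libraries of Foxj1-Olig2-tdT and 2020.2 and 1973.0 in those of Foxj1-tdT, a rise in each genotype (log2 7.54 ± 1.36, adjusted p = 0.00222, and 5.03 ± 1.36, adjusted p = 0.0245). Mdk, the related midkine, was lower in uninjured Foxj1-Olig2-tdT cells (187.5 and 374.1) than in uninjured Foxj1-tdT cells (815.7 and 868.2), with adjusted p = 0.0242. Nrg2, a second neuregulin, was at 0.5 and 0 in uninjured Foxj1-Olig2-tdT libraries and at 183.2 and 106.7 in uninjured Foxj1-tdT libraries (adjusted p = 0.00644), and fell in Foxj1-tdT cells at both times.

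**Figure D2:**
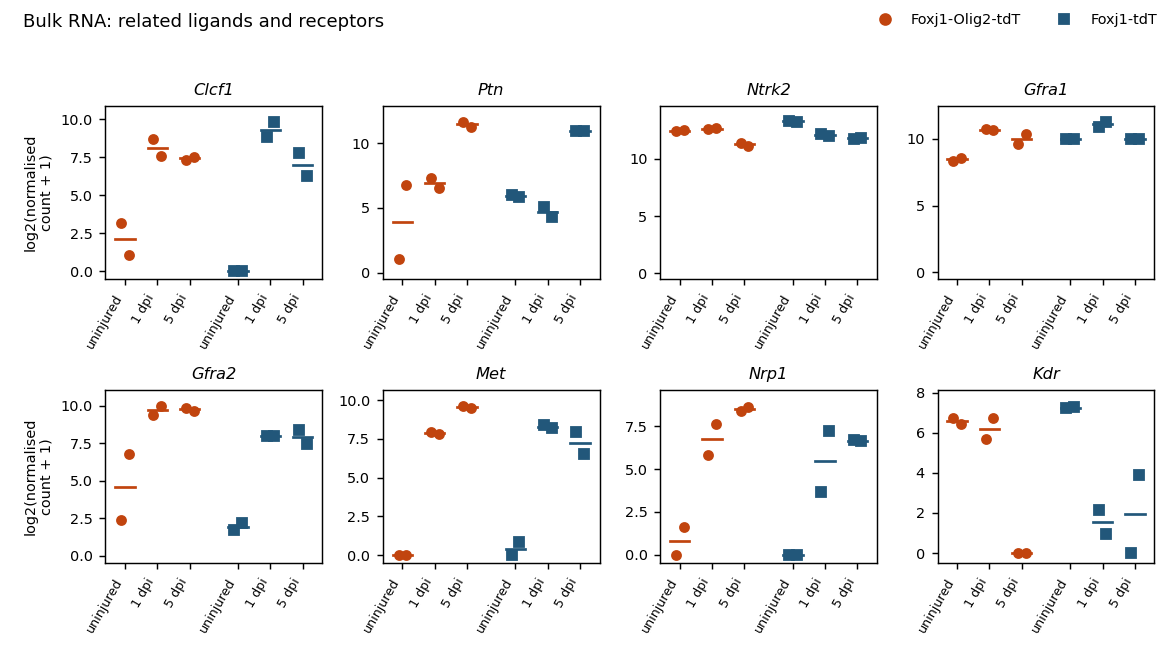
Bulk RNA of related ligands and of receptors as log2(normalised count + 1), with Foxj1-Olig2-tdT libraries as circles on the left of each panel and Foxj1-tdT libraries as squares on the right, 2 libraries per group with their mean as a bar. Clcf1, Met and Nrp1 are near 0 without injury and high afterwards in both genotypes, while Kdr falls to 0 and 0 in Foxj1-Olig2-tdT libraries at 5 dpi.

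Receptors for these factors were measured in the same cells. Of 19 receptors tested, 5 rose and 1 fell at 1 dpi in Foxj1-Olig2-tdT cells and 7 rose and 4 fell at 5 dpi, or 31.6% and 57.9% of the list, against 8.09% and 31.2% of all genes. In Foxj1-tdT cells 5 rose and 5 fell at 1 dpi, and 4 rose and 2 fell at 5 dpi, or 52.6% and 31.6%, against 27.4% and 23.0% of all genes. Ntrk2 encodes TrkB, the receptor of Bdnf. Foxj1-Olig2-tdT libraries held 5482.6 and 5782.4 when uninjured, 6426.1 and 6529.1 (1 dpi) and 2762.2 and 2241.3 (5 dpi). Foxj1-tdT libraries held 10036.7 and 9871.5 when uninjured, 4789.2 and 4161.7 (1 dpi) and 3409.3 and 3744.5 (5 dpi). Ntrk2 was lower in Foxj1-Olig2-tdT cells without injury (log2 -0.82 ± 0.14, adjusted p = 0.00667) and at 5 dpi (-0.52 ± 0.14, adjusted p = 0.0432), and its 1 dpi response differed between genotypes (1.36 ± 0.19, adjusted p = 0.00983). Met, the Hgf receptor, was listed at 0 and 0 in uninjured Foxj1-Olig2-tdT libraries and reached 770.6 and 700.9 after 5 days (adjusted p = 9.34e-06). In Foxj1-tdT cells Met was at 245.8 and 89.3 at 5 dpi, against 0 and 0.8 without injury (adjusted p = 0.000223). Gfra1, the preferred Gdnf co-receptor, was at 324.4 and 376.6 in uninjured Foxj1-Olig2-tdT libraries and at 1036.0 and 1024.5 in uninjured Foxj1-tdT libraries (log2 -1.56 ± 0.25, adjusted p = 0.00554). At 5 dpi it was at 795.2 and 1302.8 in Foxj1-Olig2-tdT libraries and at 1002.1 and 1003.8 in Foxj1-tdT libraries, and the 5 dpi response differed between genotypes (1.58 ± 0.35, adjusted p = 0.0268). Gfra2, the neurturin co-receptor, and Nrp1, a Vegfa co-receptor, rose at both times in both genotypes. Kdr, the main Vegfa receptor, fell at 5 dpi to 0 and 0 in Foxj1-Olig2-tdT libraries, against 103.4 and 85.3 without injury (adjusted p = 0.00231), and fell in Foxj1-tdT cells at both times.

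Genes that process these ligands changed in both directions. Of 10 tested, 5 rose and 2 fell at 5 dpi in Foxj1-Olig2-tdT cells, where 31.2% of all genes were called, and 2 rose and 2 fell in Foxj1-tdT cells, where 23.0% were. Spint2, an inhibitor of the proteases that activate Hgf, was at 356.8 and 432.3 in Foxj1-Olig2-tdT libraries and at 947.8 and 1075.5 in Foxj1-tdT libraries at 5 dpi (log2 -1.36 ± 0.19, adjusted p = 0.00209). Without injury it was at 3040.6 and 2439.6 in Foxj1-Olig2-tdT libraries and at 3730.9 and 3624.7 in Foxj1-tdT libraries. Sorl1, a sorting receptor, fell at both times in both genotypes and was lower in Foxj1-Olig2-tdT cells without injury (2936.5 and 4203.2, against 10459.7 and 12492.4 in uninjured Foxj1-tdT libraries, adjusted p = 0.00615). Plat, the tissue plasminogen activator, rose at 5 dpi in Foxj1-Olig2-tdT cells to 14095.8 and 13725.5, against 4901.2 and 6795.1 without injury (adjusted p = 0.0013), and was higher there than in Foxj1-tdT cells at 5 dpi (6644.8 and 6107.5, adjusted p = 0.00882). Furin, a convertase of pro-neurotrophins, rose in Foxj1-Olig2-tdT cells at both times, and Adam10, a membrane sheddase, and Spint1, a second Hgf activator inhibitor, rose at 5 dpi in both genotypes.

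The Vegfa values were also set beside 14 genes of oxygen sensing, since Vegfa is a textbook target of hypoxia-inducible factors. In Foxj1-Olig2-tdT cells 1 rose and 1 fell at 1 dpi, and 2 rose and 7 fell at 5 dpi, or 14.3% and 64.3% of the list, against 8.09% and 31.2% of all genes. In Foxj1-tdT cells 1 rose and 3 fell at 1 dpi, and 0 rose and 4 fell at 5 dpi, each 28.6% of the list and so near the 27.4% and 23.0% of all genes. Slc2a1, the glucose transporter GLUT1, was at 9089.5 and 9659.5 in Foxj1-Olig2-tdT libraries and at 4064.9 and 5366.1 in Foxj1-tdT libraries at 1 dpi (adjusted p = 0.0177). Without injury it was at 19763.4 and 17221.2 in Foxj1-Olig2-tdT libraries and at 14630.5 and 15241.8 in Foxj1-tdT libraries. Hilpda, a lipid droplet protein, was the 1 that rose at 1 dpi in Foxj1-tdT cells, to 285.9 and 564.5, against 141.3 and 125.7 without injury (adjusted p = 0.0372). Ndrg1 was at 47.8 and 28.0 in uninjured Foxj1-Olig2-tdT libraries, against 1453.5 and 1371.6 in uninjured Foxj1-tdT libraries (log2 -5.23 ± 0.64, adjusted p = 0.00165). Bnip3 and Pdk1 fell at 5 dpi in both genotypes, and Epas1, which encodes HIF-2 alpha, fell at 5 dpi in Foxj1-Olig2-tdT cells (34.5 and 52.2, against 202.0 and 424.0 without injury, adjusted p = 0.0026).

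In the single-cell RNA data most of the 8 genes were close to the limit of detection. The samples are labelled as both genotypes without injury and at 2 and 4 wpi, but nothing ties the 6 library codes of the cells to these labels, so codes are described singly, with no comparison of genotype or time and no test. The authors' cell table kept 3285 of 3500 cells, and the codes held between 337 and 992 kept cells and between 1053842 and 8325985 UMIs. In all, 7 cell barcodes occurred in more than 1 code. Over all kept cells there were 339 UMIs of Bdnf, 146 of Vegfa, 72 of Nrg1, 9 each of Gdnf and Angpt2, 6 of Hgf, 4 of Artn and 2 of Cntf. Of the 18371 genes detected, 38.7% had more UMIs than Bdnf and 89.8% had more than Cntf. The 2 UMIs of Cntf came from codes 018 and 072, and the 0 in code 017 allows a level of up to 2.85 CPM, which is 3 counts of the total.

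Bdnf had 12.3 CPM in code 017 (95% Poisson interval 6.57 to 21.1), 20.3 in 018 (16.6 to 24.6), 5.08 in 019 (2.32 to 9.64), 9.29 in 020 (5.59 to 14.5), 20.4 in 072 (17.5 to 23.7) and 6.91 in 073 (4.33 to 10.46). The intervals of codes 018 and 072 lay above those of 019, 020 and 073. These and all later intervals cover counting error only. Cells were sorted into classes by textbook markers. The clusters left unnamed held all 8 ependymal markers, but markers of another cell type among their leading genes, or low depth, spoke against that name. Bdnf was found in ependymal-like cells at 17.5 CPM (15.2 to 20.1, 1964 cells) and in the unnamed clusters at 16.4 CPM (13.8 to 19.4). In oligodendrocyte-like cells it was at 0.703 CPM (0.0178 to 3.92), from 1 UMI at a median of 9678 UMIs per cell. Class and code cannot be told apart in these figures, because all 126 oligodendrocyte-like cells came from codes 073 and 020, while those codes gave only 11 and 25 of the ependymal-like cells. The oligodendrocyte-like cells thus give no background level for the other 4 codes. Within code 073, Bdnf was at 12.05 CPM (7.46 to 18.4) in the unnamed clusters and at 0.894 CPM (0.0226 to 4.98) in oligodendrocyte-like cells. Within code 020 it was at 10.1 CPM (5.66 to 16.7) in the unnamed clusters, with no UMI in 33 oligodendrocyte-like cells, which allows up to 9.86 CPM. The unnamed cells are not alike in these codes, here and for the genes below. In code 020, 236 of them were in a cluster with Ctss, Lyz2 and Tyrobp among its leading genes. In code 073, 200 were in a cluster led by Pla2g7, Bglap and Col1a1. The highest of the 14 clusters was one led by the immediate-early genes Junb, Egr1 and Fos, with 92 UMIs of Bdnf and 33.0 CPM. Of its 383 cells, 216 came from code 072 and 139 from code 018, the codes with the highest Bdnf. It was not set against other clusters within a code.

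Vegfa was high in 1 code only. It had 28.3 CPM in code 073 (22.7 to 34.8), against 4.44 in 072 (3.13 to 6.12) and 0.949 to 2.11 in the other 4. Within the cells it sat in oligodendrocyte-like cells, at 49.2 CPM (38.3 to 62.1), and in oligodendrocyte progenitor-like cells, at 25.9 CPM (12.9 to 46.4), against 2.64 CPM (1.78 to 3.77) in ependymal-like cells. Of the 126 oligodendrocyte-like cells 93 were from code 073 and 33 from code 020. In code 073 they had 69 UMIs of Vegfa in 22 cells, at 61.7 CPM (48.0 to 78.0), and in code 020 they had 1 UMI, at 3.29 CPM (0.0832 to 18.3). Within code 073 the progenitor-like cells had 45.2 CPM (22.6 to 80.9) and the unnamed clusters 5.74 CPM (2.75 to 10.55). Oligodendrocyte markers summed to 22036 CPM in code 073, 6951 CPM in code 020 and at most 770 CPM in the other 4 codes, and the part of free RNA from these cells was not tested.

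Nrg1 had between 0.949 and 5.38 CPM over the 6 codes, and all 6 intervals overlapped. In oligodendrocyte progenitor-like cells it was at 14.1 CPM (5.19 to 30.8, 6 UMIs), against 2.47 CPM (1.64 to 3.56) in ependymal-like cells. Class and code cannot be told apart here either, since 35 of the 59 progenitor-like cells came from code 073 and 22 from code 020. Within code 073 Nrg1 was at 20.5 CPM (6.67 to 47.9, 5 UMIs) in progenitor-like cells and 4.02 CPM (1.61 to 8.27) in the unnamed clusters, with intervals that overlapped. Gdnf, Artn, Hgf and Angpt2 had at most 6 UMIs in any code, so no order can be read from them.

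**Figure D3:**
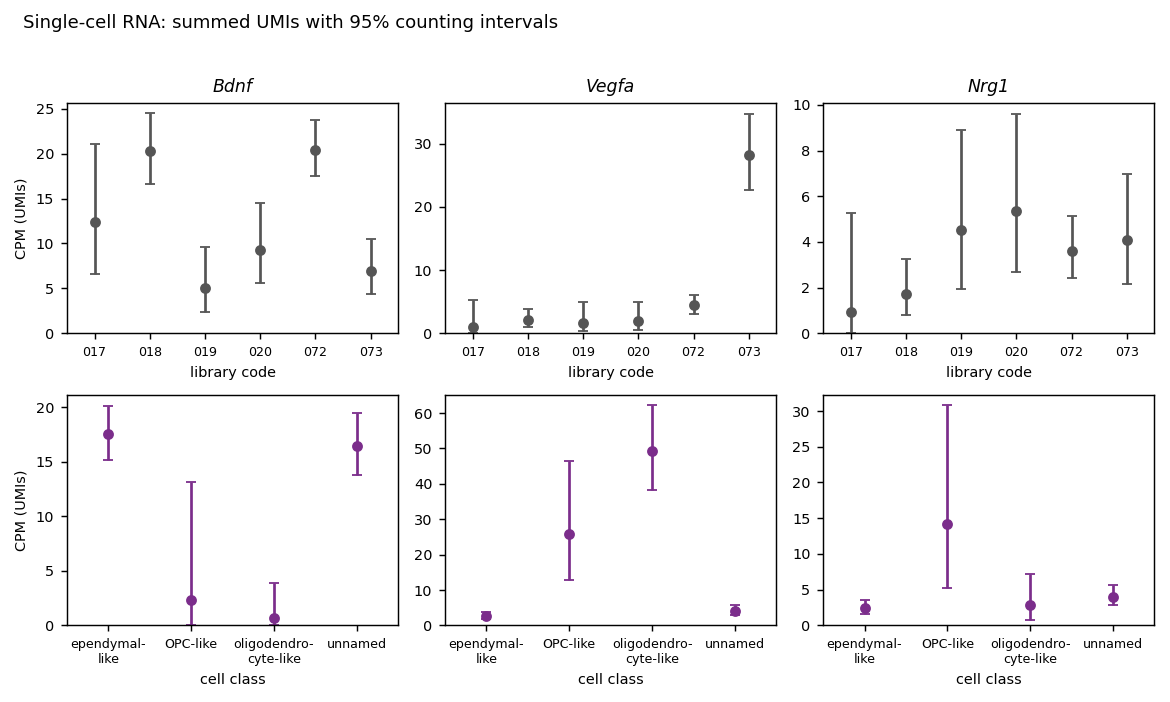
Single-cell RNA of Bdnf, Vegfa and Nrg1 in CPM of UMIs, by library code (upper row) and by cell class (lower row, OPC-like meaning oligodendrocyte progenitor-like), with exact 95% Poisson intervals. Bdnf lies at 17.5 CPM in ependymal-like and 0.703 CPM in oligodendrocyte-like cells, classes that come mostly from different codes, and Vegfa stands out in code 073 at 28.3 CPM.

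Chromatin at the 8 genes was read from the single-cell ATAC data of uninjured cord, in the 8 cell classes of the authors' table. The sources used here do not spell out the class names, so they are used as written. Foxj1 had 248 CPM of cut sites over classes EP1 to EP3, against 124 CPM over ACNT1 and ACNT2 and 26.3 to 89.3 CPM in the rest. Pdgfra was highest in OPC (136 CPM), Cldn5 in VEC (147 CPM) and Pdgfrb in PER (112 CPM), while Aqp4 did not separate ACNT (124 CPM) from EP (107 CPM). Each value that follows is the share of a class's cut sites that fell in peaks within 2 kb of the gene, in CPM. With 1 sample there is no replicate and no test.

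Cntf had 1 peak, which spans its transcript start. Counted in cut sites, it was more open in the EP classes than in ACNT1, ACNT2, OPC and VEC, with PER close to EP. It had 23.3 CPM in EP1 (18.9 to 28.4), 20.1 in EP2 (17.9 to 22.5) and 17.5 in EP3 (14.2 to 21.4). In the other classes it had 15.9 CPM in PER (8.91 to 26.3), 4.09 in ACNT2 (1.87 to 7.76), 3.15 in OPC (1.36 to 6.20), 1.69 in ACNT1 (0.205 to 6.11) and no cut site in VEC, which allows up to 6.57 CPM when taken as 3 counts of the total (the exact interval reaches 8.08). The PER interval covers the EP1, EP2 and EP3 values. With the peak counted once per cell, EP1 (17.2 to 33.6) and EP2 (19.2 to 28.3) stayed above ACNT1, ACNT2 and OPC. The EP3 interval (10.2 to 22.4) then overlapped those of ACNT1, ACNT2 and OPC. The VEC interval (0 to 21.6) overlapped those of EP1, EP2 and EP3. Over EP1 to EP3 the level was 20.1 CPM from 499 cut sites in 172 of 754 cells, against 3.25 CPM from 11 cut sites over ACNT1 and ACNT2. The promoter printed above lies whole inside this peak. Gm44505 and Zfp91 lie within 2 kb of Cntf, so the peak need not belong to Cntf alone.

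Gdnf had 6 peaks, and they divided between classes. The peak centred 1.73 kb before the gene start had 19.2, 16.0 and 10.2 CPM in EP1, EP2 and EP3, against 1.97 CPM in OPC and no cut site in ACNT1 or ACNT2. The peak over the first promoter had 29.1 CPM in OPC, against 9.95, 8.31 and 3.10 CPM in EP1 to EP3. The next peak, over the second promoter, was also higher in OPC, at 29.5 CPM, than in EP1, EP2 and EP3, at 14.8, 11.3 and 11.9 CPM. Summed over all 6 peaks, Gdnf had 77.5 CPM in OPC (67.1 to 89.1), 39.0 over EP1 to EP3 (36.6 to 41.6) and 5.91 over ACNT1 and ACNT2 (3.61 to 9.13).

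Bdnf was open across EP1 to EP3 at 79.1 CPM (75.6 to 82.6), in OPC at 67.7 CPM (57.9 to 78.6) and over ACNT1 and ACNT2 at 40.5 CPM (34.0 to 47.9). Among the EP classes the level was 101 CPM in EP1, 78.8 in EP2 and 63.3 in EP3, with intervals that did not overlap. With each peak counted once per cell the neighbouring intervals did overlap, at 89.2 to 122 in EP1, 77.2 to 94.3 in EP2 and 58.4 to 83.8 in EP3. Of its 9 peaks, 1 centred 19.4 kb into the gene held 1321 cut sites and overlaps 3 of the 7 annotated promoter windows, the printed one among them. The following peak, centred 23.3 kb into the gene, had 17.7, 14.7 and 11.0 CPM in EP1, EP2 and EP3, against 2.54 in ACNT1, 4.09 in ACNT2 and 1.18 in OPC. A peak centred 3.13 kb into the gene ran the other way, with 18.5 CPM in OPC and 6.79, 5.82 and 2.56 in EP1, EP2 and EP3. Over the peaks around either gene end only, OPC was above EP, at 12.6 CPM (8.61 to 17.8) against 5.63 over EP1 to EP3 (4.73 to 6.64).

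Vegfa showed the opposite order. It had 215 CPM in ACNT1 (189 to 243) and 190 in ACNT2 (173 to 209), against 38.6 in EP1, 56.1 in EP2 and 51.7 in EP3, with 102 in OPC and 92.3 in PER. Both of its peaks had this order between ACNT and EP. The peak 5.15 kb into the gene had 79.5 and 74.5 CPM in ACNT1 and ACNT2 and between 11.2 and 11.9 CPM in EP1 to EP3. In uninjured cord the Vegfa promoter peak was open in EP cells, at 27.4 to 44.4 CPM. Vegfa RNA was listed at 0 in both uninjured Foxj1-tdT libraries and at 34.7 and 36.3 in the uninjured Foxj1-Olig2-tdT libraries. The label of the ATAC sample names no genotype, so the peak cannot be matched to either pair.

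Nrg1 had 26 peaks inside its body and none within 2 kb of either end, with 176 CPM over EP1 to EP3 (170 to 181), 135 in OPC and 77.7 over ACNT1 and ACNT2. One peak (chr8:32292215-32294706) had 75.0, 53.8 and 63.9 CPM in EP1, EP2 and EP3, against 1.69 and 0.908 CPM in ACNT1 and ACNT2. A peak at chr8:31917826-31919914 ran the other way, with 30.7 CPM in OPC and 3.29 to 5.34 CPM in EP1 to EP3. The gene is over 1 megabase long and holds other annotated genes, so a peak inside it need not belong to it.

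Artn, Hgf and Angpt2 had little signal. Artn had 22.4 CPM in OPC (16.99 to 29.1), against 7.96 over EP1 to EP3 (6.89 to 9.15). Angpt2 had 29.9 CPM in OPC (23.6 to 37.4), 21.9 in VEC (10.50 to 40.3) and 6.87 over EP1 to EP3 (5.88 to 7.98), from peaks that Mcph1 shares. Hgf had 1 peak, with 3.98 CPM over EP1 to EP3 (3.23 to 4.84) and intervals that overlapped between all 8 classes.

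**Figure D4:**
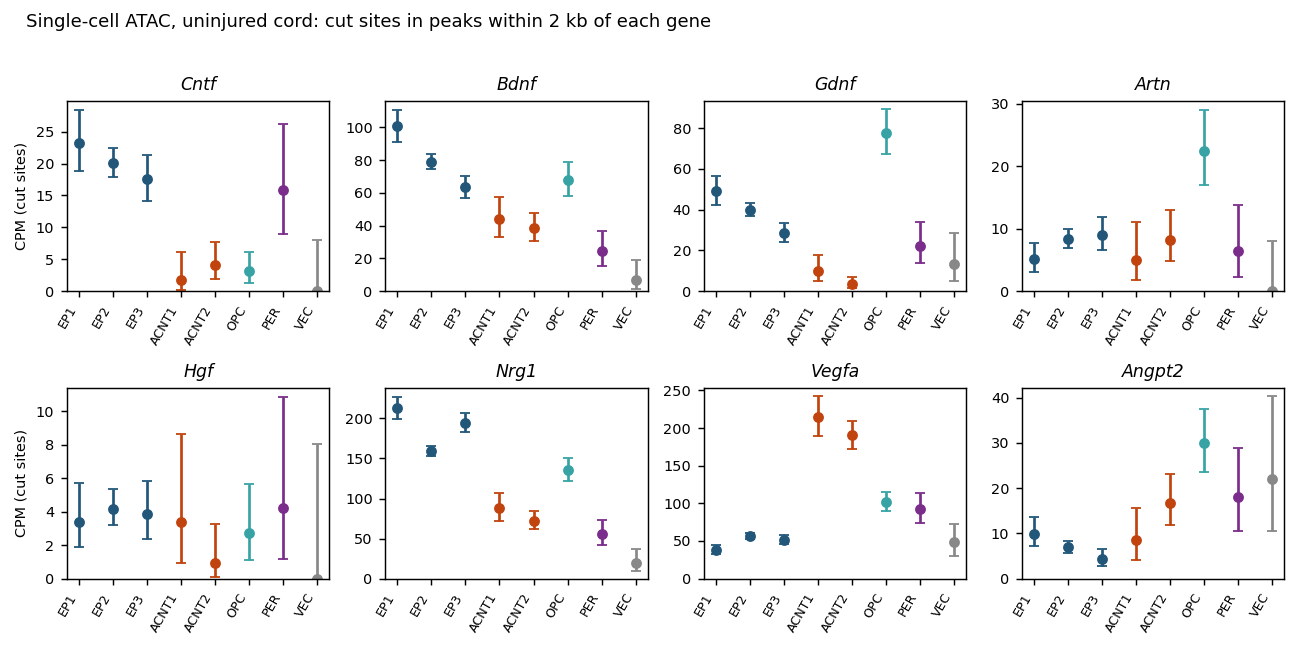
Single-cell ATAC cut sites in peaks within 2 kb of each of the 8 genes, in CPM per cell class of the authors' table, with exact 95% Poisson intervals. Cntf stands at 17.5 to 23.3 CPM in EP1 to EP3, Gdnf is highest in OPC at 77.5 CPM, and Vegfa is highest in ACNT1 and ACNT2 at 215 and 190 CPM.

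**Figure D5:**
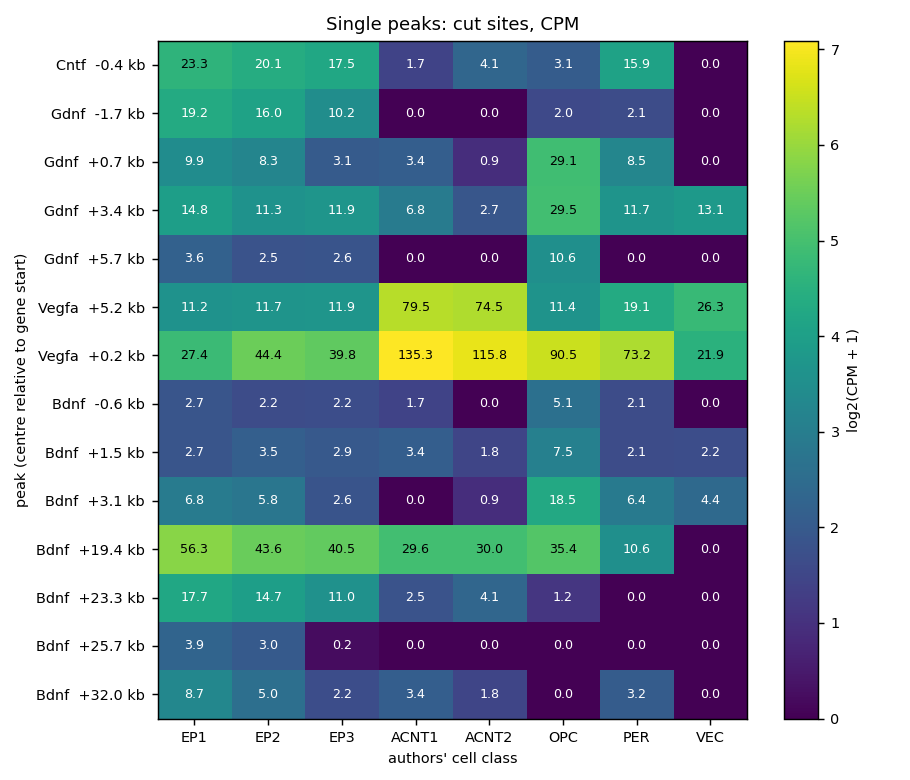
Cut sites of single peaks with at least 50 cut sites at Cntf, Gdnf, Vegfa and Bdnf, one row per peak with the distance of its centre from the gene start in kb, one column per cell class, numbers in CPM and colour as log2(CPM + 1). The Gdnf peak 1.73 kb before the gene start is read in EP1 to EP3 (10.2 to 19.2 CPM), and the Gdnf peaks at and after the start are highest in OPC.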

How the data were processed

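The bulk RNA values were a signal per gene, normalised counts deposited by the authors with 1 decimal. Neither the counting program nor the scaling is given in the sources used here. The values did not resolve into whole reads. Single-cell RNA counts (UMIs per gene and cell) and single-cell ATAC counts (cut sites per peak and cell) were deposited by the authors as matrices with cell tables. The submitters' processing notes name the build mm10 and, among the tools, Cell Ranger ATAC, Cell Ranger and Bowtie2. The 8 genes, the lists and the tests were chosen with earlier results of these data known. On the log2(value + 1) scale, bulk values were fitted in limma (3.58.1, under R 4.3.3; trended variance, 6 group means, 12 libraries), for 15811 genes of at least 10 in at least 2 libraries, with Benjamini-Hochberg adjustment within each of 9 comparisons. On data simulated for the comparison of Foxj1-tdT cells at 5 dpi with uninjured ones, the fit was tested on known changes. Genes named beside the 8 were those of each list called in most comparisons, up to 6 per list; 2 of them are not reported here. Likeness is Pearson r over 12 libraries among 13359 genes with a group mean of at least 50.

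UMIs were summed per library code or cluster (14 Leiden clusters at resolution 1, from 2000 variable genes, 30 components and 15 neighbours in scanpy 1.11.5) and scaled to CPM with exact 95% Poisson intervals. Clusters took the name of the textbook list whose markers were most often detected (in at least 25% of cells, at least 3 markers), unless its leading genes or depth spoke against it. Doublets were not removed here. ATAC peaks were those overlapping the gene, on GRCm38.p6 coordinates of RefSeq, extended by 2 kb, and peak coordinates are printed as the authors' file gives them. The 12 bulk ATAC samples were not analysed here. Alternatives were a pseudocount of 8, no filter, median-of-ratios factors, quantile normalization, no variance trend, the replicate number as a block, each library left out, and the uninjured Foxj1-tdT pair as 1 library, and for single cells other cell sets, windows and binary counting.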

Additional observations from a re-analysis of the deposited data

Results flagged for a closer look

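The 1 dpi response of Artn differed between Foxj1-Olig2-tdT and Foxj1-tdT cells by a test of the difference itself (limma, adjusted p = 0.0472). Foxj1-Olig2-tdT libraries of 1 dpi had Artn at 0 and 0, against 26.8 and 0.8 without injury, and at 154.3 and 127.9 at 1 dpi in Foxj1-tdT libraries, against 0 and 1.0 without injury. The same test was passed by Angpt2 (adjusted p = 0.0372), which was at 44.8 and 26.7 in Foxj1-Olig2-tdT libraries of 1 dpi, against 0 and 0 without injury, and at 0 and 1.2 in Foxj1-tdT libraries, against 37.3 and 51.4 without injury. With both uninjured Foxj1-tdT libraries averaged into 1 the adjusted p was 0.185 for Artn and 0.162 for Angpt2.

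Hgf, Vegfa and Angpt2 were read in the 215 cells that the authors' cell table left out of the single-cell RNA matrix, above their level in the kept cells. These cells had a median of 12207 UMIs, against 5722 in kept cells. Hgf had 5.39 CPM (95% Poisson interval 3.02 to 8.89, 15 UMIs in 15 cells) in left-out cells and 0.278 CPM (0.102 to 0.605, 6 UMIs) in kept cells. Vegfa had 12.2 CPM (8.46 to 17.1) in left-out cells and 6.76 CPM (5.71 to 7.95) in kept cells. Angpt2 had 6.47 CPM (3.83 to 10.2, 18 UMIs) in left-out cells and 0.417 CPM (0.191 to 0.791, 9 UMIs) in kept cells. The left-out cells held Lyz2 at 23529 CPM, C1qa at 3676 CPM and Col1a1 at 17485 CPM, against 73.5, 11.3 and 47.0 CPM in kept cells, while the ependymal marker Foxj1 was at 5.39 CPM in left-out and 276 CPM in kept cells.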

How the results depend on the processing

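The number of the 8 genes called moved by more than 1.5 times in several comparisons, while no called difference changed sign. Between genotypes without injury (2 called), 1 was called without the filter, with quantile normalization, with no trend in the variance and with the replicate block, and 0 with a pseudocount of 8 and with the 2 uninjured Foxj1-tdT libraries averaged into 1. Between genotypes at 1 dpi (1 called), 0 were called with a pseudocount of 8, quantile normalization, no variance trend and that pair averaged into 1, and at 5 dpi (1 called) 2 with a pseudocount of 8. With that pair averaged into 1, 1 in place of 3 was called in Foxj1-tdT cells at 1 dpi and 2 in place of 4 at 5 dpi. For the difference in response at 1 dpi (2 called), the replicate block left 1, and a pseudocount of 8, quantile normalization, no variance trend and that pair averaged into 1 left 0. At 5 dpi (0 called) quantile normalization gave 1. The same averaging moved the count over all genes by more than 1.5 times in most comparisons: to 235 between genotypes without injury (1231 before), 69 at 1 dpi (291) and 839 at 5 dpi (1460), to 1755 and 1324 in Foxj1-tdT cells (4331 and 3642), to 719 in Foxj1-Olig2-tdT cells at 1 dpi (1279), and to 42 and 224 for the difference in response (438 and 1151). No variance trend gave 138 between genotypes at 1 dpi, 906 at 5 dpi and 708 in Foxj1-Olig2-tdT cells at 1 dpi, and the block gave 271 for the difference in response at 1 dpi. The cause was not tested.

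Leaving out each library in turn gave 0 to 2 calls between genotypes without injury, 0 to 1 at 1 dpi and 1 to 2 at 5 dpi. It gave 1 to 4 and 2 to 4 in Foxj1-tdT cells at 1 and 5 dpi, 0 to 1 and 1 to 2 in Foxj1-Olig2-tdT cells, and 0 to 3 and 0 to 1 for the difference in response at 1 and 5 dpi. The lone library of a group was then assumed to vary like the other groups. Replicate numbers did not pair the samples (correlations of same-numbered deviations between -0.03 and 0.022), and the block changed no other count.

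Of the single-cell RNA levels, 4 of 48 moved beyond their counting interval with all cells of the matrix and 14 of 48 with ependymal-like clusters only. Of 64 ATAC levels, 37 moved with peaks around either gene end only, 3 with the gene body only and 20 with binary counting. Depth limits Cntf, Gdnf, Artn, Hgf and Angpt2 in single cells, where each had at most 9 UMIs.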
